A study of Mus musculus with 48 samples.

Results

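The genes that build cholesterol and the SREBP2 machinery that controls them were followed in airspace macrophages of mice lacking Siglec-F (knockout, KO) and of wild type (WT) mice, before and after lung injury with bleomycin. Members were the rows of the deposited count table whose symbol was one of 29 names, running from the enzymes that supply acetyl-CoA to the last reductase of the pathway, together with the SREBP2 regulators and a pair of sterol-binding proteins. All 29 were among the 24411 genes of the table, and all 29 were among the 12634 genes that passed the filter on low counts. The RNA was that of lavaged airspace macrophages, and 24 male mice gave it. They fell into 8 groups of 3 mice: Siglec-F KO mice that were naive or 7, 14 or 21 days after bleomycin, and WT mice at the same 4 times. Bleomycin, an agent used to cause lung injury and scarring in mice, was given into the trachea at 2.5 units/kg, and the naive mice carry the label saline control and day 0. The labels give neither the construct nor the breeding of the KO line, so whether the WT mice were littermates is not known here. The labels do not tell how macrophages were parted from other lavaged cells.

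Cholesterol is built from acetyl-CoA through mevalonate, the isoprenoid diphosphates, squalene and lanosterol, and the lanosterol skeleton is then trimmed and reduced to cholesterol. The transcription factor SREBP2, encoded by Srebf2, switches the enzyme genes on as a set. Its precursor sits in the membrane of the endoplasmic reticulum bound to the escort protein SCAP. When sterol is plentiful, INSIG proteins hold the complex there, and when sterol is scarce it moves to the Golgi, where the proteases encoded by Mbtps1 and Mbtps2 release the active factor. SREBP2 acts at sterol regulatory elements, often beside sites for NF-Y and Sp1. Alveolar macrophages take up and clear surfactant, a film rich in phospholipid and cholesterol, so uptake and synthesis of sterol meet in this cell.

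RefSeq promoter windows (build GRCm38.p6, 250 bases before to 50 bases after a gene's start) were found for 25 of the 29 members and searched on both strands for TCACNCCAC, a sterol regulatory element, for CCAAT, the NF-Y box, and for GGGCGG, the Sp1 box. The windows of 5 members are shown because they differ in these letters and because the genes differ in their response. Capitals mark TCACNCCAC and CCAAT, where CCAAT on the opposite strand reads ATTGG.
Hmgcs1 (chr13:119690101-119690400, plus strand): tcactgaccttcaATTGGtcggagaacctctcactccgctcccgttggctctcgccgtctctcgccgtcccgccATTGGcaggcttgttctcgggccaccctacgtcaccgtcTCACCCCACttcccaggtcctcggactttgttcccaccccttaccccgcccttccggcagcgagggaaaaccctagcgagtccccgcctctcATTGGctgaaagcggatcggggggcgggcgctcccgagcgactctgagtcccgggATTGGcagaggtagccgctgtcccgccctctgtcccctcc
Idi1 (chr13:8885356-8885655, plus strand): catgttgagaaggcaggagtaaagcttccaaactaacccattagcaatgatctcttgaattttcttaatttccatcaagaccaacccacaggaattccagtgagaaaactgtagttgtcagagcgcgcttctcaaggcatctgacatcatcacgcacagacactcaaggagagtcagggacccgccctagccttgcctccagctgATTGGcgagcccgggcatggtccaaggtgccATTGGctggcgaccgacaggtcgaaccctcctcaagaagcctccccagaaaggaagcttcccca
Insig1 (chr5:28071162-28071461, plus strand): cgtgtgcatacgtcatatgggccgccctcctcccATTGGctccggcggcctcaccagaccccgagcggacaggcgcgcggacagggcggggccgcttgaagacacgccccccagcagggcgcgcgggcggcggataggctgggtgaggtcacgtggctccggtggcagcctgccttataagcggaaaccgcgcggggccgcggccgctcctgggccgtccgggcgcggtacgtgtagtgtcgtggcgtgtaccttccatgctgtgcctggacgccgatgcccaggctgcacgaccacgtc
Tm7sf2 (chr19:6067801-6068100, minus strand): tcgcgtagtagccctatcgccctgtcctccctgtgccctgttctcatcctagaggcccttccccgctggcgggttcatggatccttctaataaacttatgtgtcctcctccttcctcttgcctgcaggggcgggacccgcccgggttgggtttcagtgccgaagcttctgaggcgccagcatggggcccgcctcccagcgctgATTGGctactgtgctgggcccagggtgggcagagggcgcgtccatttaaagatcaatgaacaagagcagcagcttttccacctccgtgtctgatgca
Scap (chr9:110333038-110333337, plus strand): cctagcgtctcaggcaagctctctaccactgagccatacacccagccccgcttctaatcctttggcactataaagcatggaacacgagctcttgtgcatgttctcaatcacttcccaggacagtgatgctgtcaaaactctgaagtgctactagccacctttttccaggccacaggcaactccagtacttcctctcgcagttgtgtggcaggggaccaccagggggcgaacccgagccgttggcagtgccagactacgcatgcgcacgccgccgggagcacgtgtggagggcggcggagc
Hmgcs1, which makes HMG-CoA, held 1 match to TCACNCCAC and 4 to CCAAT. It was the only 1 of the 25 members with a match to TCACNCCAC in its window. Such a match stood in the windows of 1.38% of the 9613 tested genes that have a promoter entry. TCACNCCAC is 1 spelling of the element. Other spellings may occur in these windows and, but for the shorter form below, were not searched. CCAAT stood in 21 of 25 members, or 84.0%, against 42.8% of those tested genes, and GGGCGG in 22 of 25, or 88.0%, against 67.8%. The 4 members without CCAAT were Acat2, Scap, Mbtps1 and Mbtps2. Scap has 2 windows that overlap, of which the upstream one is shown, and neither holds CCAAT or TCACNCCAC. A shorter form chosen after these matches were seen, CACNCCAC, which lies inside TCACNCCAC, stood in Acat2, Hmgcs1 and Insig1, or 12.0% of the members against 7.55% of the tested genes. These are matches of letters in 1 window per gene start and say nothing of whether a factor bound there.

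Libraries held 24877049 to 47457085 counts, and each member had between 153 and 10465 counts in every mouse. The labels give a number to each mouse, so the 3 libraries of a group are separate animals. Siglecf, the deleted gene (chromosome 7, 43351341 to 43359531 in mm10), held 0 to 25 counts in each KO library and 2631 to 20368 counts in each WT library. Each of 12 resident alveolar macrophage markers had counts in every library, which by itself does not show the identity of the cells. Their summed level was 8350 to 26200 CPM (TMM-scaled counts per 1e+06 counts) in KO mice and 8440 to 26900 CPM in WT mice. Chil3 alone reached 20100 CPM, against at most 2080 CPM for Itgax, the next highest, so this sum can follow Chil3 more than the other markers. Summed levels of 5 eosinophil markers stayed at or under 2.05 CPM in every mouse, and those of 8 epithelial markers lay between 75.3 and 286 CPM. Of these 8, Cdh1 and Epcam reached the highest levels, 189 and 141 CPM, and 5 held 0 counts in at least 1 library. On the first principal component, KO day 14 mice 2 and 3 (1.6 and -15.8) and KO day 21 mouse 1 (-20.4) lay nearer to the naive mice, which lay between -59.2 and -54, than the other 15 bleomycin mice did (14.1 to 38.7). Results that use those 3 mice were recomputed without them. In bulk RNA, fewer cells of a type and less RNA per cell cannot be told apart.

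After bleomycin, sterol synthesis genes were raised in both genotypes. The counts that follow are within each genotype, and the tests of a difference between genotypes are given after the members. In KO mice 13, 22 and 16 of the 29 members rose at days 7, 14 and 21, and the median log2 fold change over the 29 was 0.38, 1.15 and 0.56 at the 3 days. In WT mice 23 members rose at day 7, 23 at day 14 and 23 at day 21, with medians of 0.72, 0.94 and 1.24. The only member that fell was Scap, at day 7 in both genotypes. Over all 12634 genes the median log2 fold change lay between 0 and 0.02 in each of these 6 comparisons. Among all tested genes, 19.7%, 12.0% and 15.0% were called higher in KO mice at days 7, 14 and 21, and 20.2%, 18.7% and 18.8% in WT mice. A further 14.4%, 4.84% and 6.89% of genes were called lower in KO mice at the 3 days, and 15.3%, 13.4% and 13.7% in WT mice. A call here is a Benjamini-Hochberg adjusted p under 0.05 in edgeR's quasi-likelihood test over all tested genes. The KO day 7 count of 14 called members became 8 without KO naive mouse 1 and 9 without KO day 7 mouse 2, and the KO day 21 count of 16 became 9 without KO naive mouse 2 and 5 without KO day 21 mouse 3. Fitting just the groups being compared gave 22 at KO day 7 and 3 at KO day 21. The WT counts stayed between 21 and 25 at each day when single mice were left out.

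**Figure D1:**
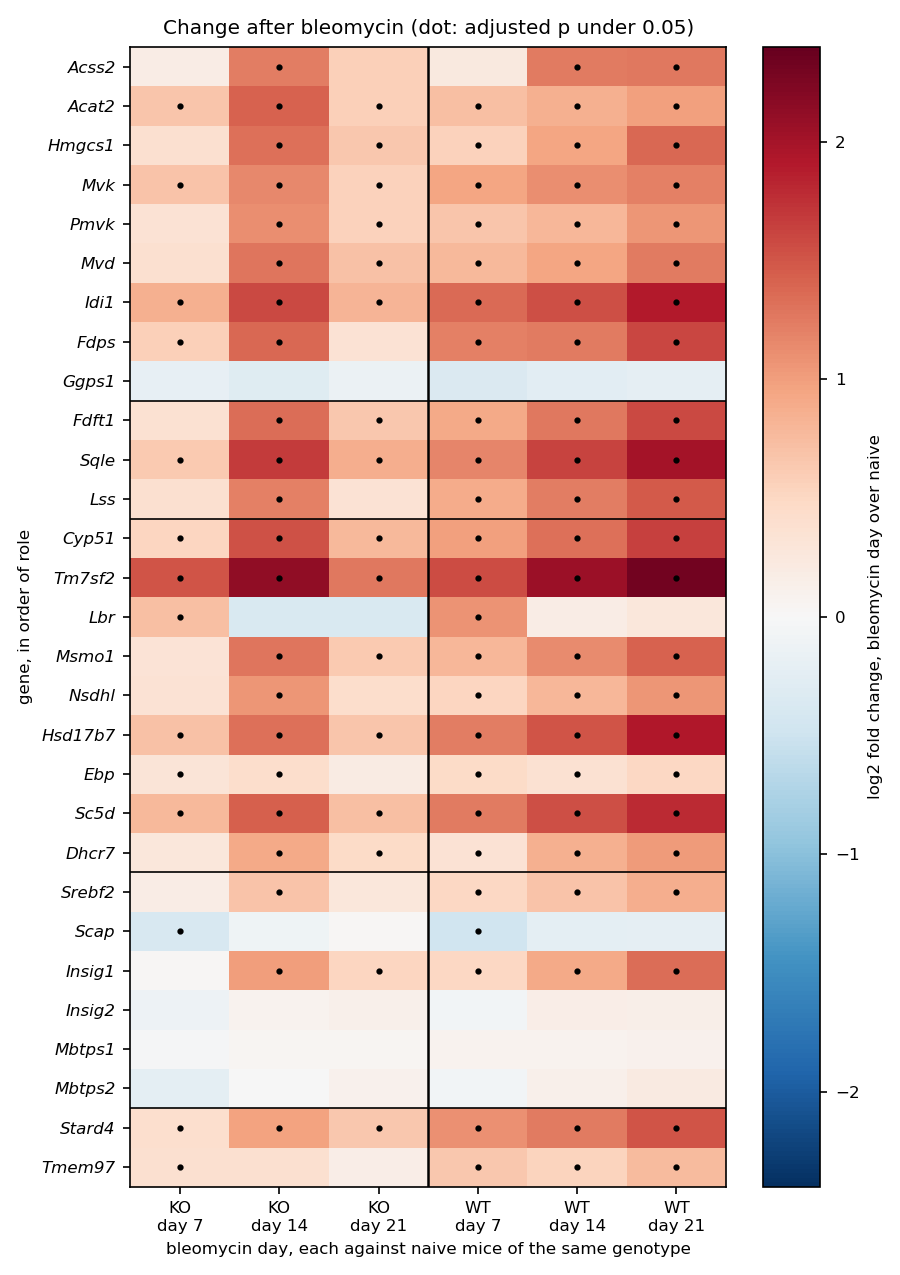
Log2 fold change of each of the 29 members (rows, in order of role) at days 7, 14 and 21 after bleomycin, each against naive mice of the same genotype, with KO columns left and WT columns right and n = 3 mice a group. Dots mark an adjusted p under 0.05. The KO day 14 column holds 22 called members and the KO day 21 column 16, where each WT column holds 23 that are higher.

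Group means gave the time of the highest level, as a description. Of the 23 members called higher in WT mice at day 21, 22 had their highest KO mean at day 14 and 0 at day 21, and all 23 had their highest WT mean at day 21. The WT mean stepped up at every time for 21 of the 23, and the KO mean did so for 0. These 23 were chosen by the WT day 21 comparison, so the place of their WT maximum is a description. Direct comparisons between bleomycin days gave the size of the steps. At day 14 against day 7, 19 members were higher in KO mice, where 6.79% of all genes were, and 1 was lower, Lbr, where 8.22% of all genes were. In WT mice at the same days 1 member was higher, Dhcr7, where 2.65% of genes were, and 1 was lower, again Lbr, where 3.20% were. The KO count of 20 called members at this step was 5 without the 3 KO mice nearest the naive mice, a setting that leaves only 1 KO mouse at day 14. At day 21 against day 7, Scap, Insig1 and Mbtps2 were higher in KO mice (7.16% of genes were) and Lbr was lower (7.73% of genes were). In WT mice at those days 12 members were higher (5.49% of genes) and Lbr was lower (6.15% of genes). The KO count of 4 became 2 without KO day 7 mouse 3 or without KO day 21 mouse 3, and 1, Lbr, in a model of the 2 groups alone. The WT count of 13 became 5 without WT day 7 mouse 2, 8 without WT day 21 mouse 2 and 5 without WT day 21 mouse 3. The WT count of 2 at day 14 against day 7 became 1 without any 1 of 4 of the mice.

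At day 21 against day 14, edgeR called 0 members in KO mice and 0 in WT mice, and 0% of all genes in each. In KO mice 25 of 29 members had log2 fold changes below 0, the median over the 29 being -0.59, and 20 had an unadjusted p under 0.05 (5.73% of all genes). In WT mice 28 had a positive one with a median of 0.25, and 2 had an unadjusted p under 0.05 (3.86% of all genes). DESeq2 called 7 members lower in KO mice (0.190% of all genes in either direction) and 0 in WT mice (0.0554%), and without KO day 21 mouse 3 edgeR called 14 in KO mice.

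**Figure D2:**
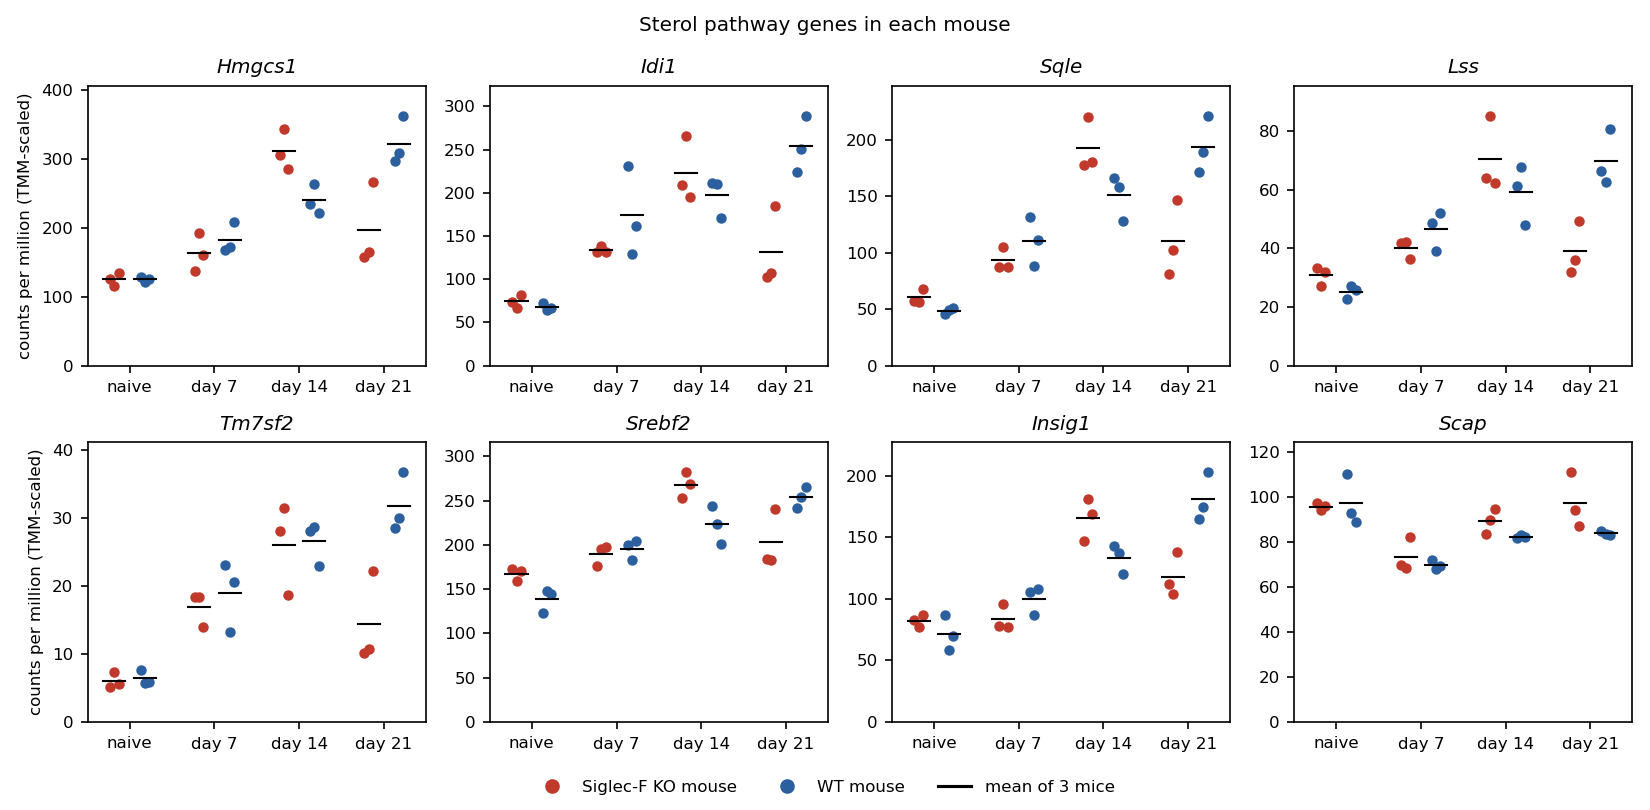
CPM (linear axis from 0) of 8 members in every mouse, naive and at days 7, 14 and 21 after bleomycin, with KO mice in red to the left and WT mice in blue to the right and a bar at the mean of 3 mice. At day 21 KO mice 1 and 2 lie under the WT mice in each panel but that of Scap, and KO mouse 3 lies above both in each panel but that of Scap.

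The first group of members supplies acetyl-CoA units and turns them into isoprenoids. Of these 9, 4, 8 and 6 rose in KO mice at days 7, 14 and 21, and 7, 8 and 8 in WT mice. Hmgcs1 (chromosome 13, 119690379 to 119708260, plus strand), whose promoter window holds the sterol element shown above, had the highest mean CPM of the group. In KO mice it was measured at 126, 115 and 134 CPM in naive mice, 137, 193 and 160 CPM at day 7, 306, 343 and 285 CPM at day 14 and 157, 165 and 266 CPM at day 21. WT mice had 128, 122 and 125 CPM in naive mice, 168, 172 and 208 CPM at day 7, 235, 263 and 222 CPM at day 14 and 296, 308 and 362 CPM at day 21. KO mice peaked at day 14, where all 3 lay above all 3 WT mice, and at day 21 all 3 lay below all 3 WT mice. Against naive mice Hmgcs1 was 2.49-fold (log2 fold change 1.32 ± 0.16 SE, adjusted p = 7.6e-06) higher at day 14 in KO mice, and 2.58-fold (log2 fold change 1.37 ± 0.16 SE, adjusted p = 2.7e-06) higher at day 21 in WT mice.

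Idi1 (chromosome 13, 8885501 to 8892451), the isomerase that balances the pair of isoprenoid building blocks, had the largest change of the group. KO mice held 74.1, 67.1 and 81.8 CPM in naive mice, 132, 139 and 131 CPM at day 7, 209, 266 and 195 CPM at day 14 and 103, 107 and 185 CPM at day 21 of it. The WT values were 73, 64.5 and 66.7 CPM in naive mice, 231, 129 and 162 CPM at day 7, 211, 210 and 171 CPM at day 14 and 224, 251 and 289 CPM at day 21. Every bleomycin mouse of either genotype lay above every naive mouse, and at day 21 KO and WT mice did not overlap. Idi1 rose at each day in both genotypes, to 3-fold (log2 fold change 1.59 ± 0.2 SE, adjusted p = 1.3e-05) at day 14 in KO mice and to 3.74-fold (log2 fold change 1.9 ± 0.21 SE, adjusted p = 9e-07) at day 21 in WT mice.

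Fdps (chromosome 3, 89093588 to 89101959), which makes farnesyl diphosphate, showed the smallest p between genotypes within the group. It stood at 76, 72.2 and 81.6 CPM in naive mice, 104, 132 and 107 CPM at day 7, 168, 229 and 196 CPM at day 14 and 73.9, 85.5 and 133 CPM at day 21 for KO. For WT it stood at 62.1, 60.5 and 71.8 CPM in naive mice, 187, 106 and 153 CPM at day 7, 175, 162 and 125 CPM at day 14 and 175, 182 and 233 CPM at day 21. KO day 21 mouse 1 lay within the range of the KO naive mice, and mice 2 and 3 lay above it. Its KO change at day 21 was 1.27-fold and not called (adjusted p = 0.24), whereas in WT mice it rose 3.03-fold (log2 fold change 1.6 ± 0.21 SE, adjusted p = 8e-06) at that day.

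The other 6 of this group ranged widely in size. Mvd, the decarboxylase, was the most abundant member per kilobase of exon at 60.7 CPM per kb over the 24 mice, and Acss2, which makes acetyl-CoA from acetate, was the least at 0.957 CPM per kb. Acss2 rose in no group at day 7, and then rose 2.33-fold in KO mice at day 14 and 2.37-fold and 2.39-fold in WT mice at days 14 and 21. Acat2, the thiolase that joins acetyl-CoA units, was called at all 6 comparisons, by 2.66-fold in KO mice at day 14 and 1.81-fold in WT mice. Its reads may be shared with the near-identical Acat3, so its level is uncertain. The kinases Mvk and Pmvk rose at most 2.3-fold and 2.17-fold. Ggps1 makes geranylgeranyl diphosphate, which leaves the sterol route for protein prenylation. It was called at 0 of the 6 comparisons, with log2 fold changes from -0.34 (WT day 7) to -0.14 (KO day 21).

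Calls for the 3 squalene genes differed by day. In KO mice Sqle alone rose at day 7, Fdft1, Sqle and Lss at day 14, and Fdft1 and Sqle at day 21. In WT mice all 3 rose at each day. Sqle (chromosome 15, 59315077 to 59331192), squalene epoxidase and a rate-controlling enzyme of the late pathway, had the highest level and the largest change of the 3. KO mice were at 56.9, 56.5 and 67.6 CPM in naive mice, 87.6, 105 and 87.3 CPM at day 7, 178, 220 and 180 CPM at day 14 and 81, 102 and 147 CPM at day 21. WT mice were at 45.9, 49.1 and 51.4 CPM in naive mice, 132, 88.5 and 111 CPM at day 7, 166, 158 and 128 CPM at day 14 and 171, 189 and 221 CPM at day 21. The KO day 14 mice and the WT day 21 mice reached similar levels, and KO day 21 mice lay between naive and day 14 values. Sqle was 3.19-fold (log2 fold change 1.67 ± 0.18 SE, adjusted p = 1.6e-06) higher at day 14 in KO mice and 3.96-fold (log2 fold change 1.99 ± 0.18 SE, adjusted p = 1.3e-07) higher at day 21 in WT mice.

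Lss (chromosome 10, 76531588 to 76557138), lanosterol synthase, closes the sterol ring. Its KO values were 33.4, 27.1 and 31.8 CPM in naive mice, 41.9, 42.2 and 36.3 CPM at day 7, 64, 85.1 and 62.4 CPM at day 14 and 31.9, 35.9 and 49.4 CPM at day 21. Its WT values ran 22.7, 27.1 and 25.7 CPM in naive mice, 48.7, 39.1 and 52.1 CPM at day 7, 61.3, 67.8 and 48 CPM at day 14 and 66.5, 62.6 and 80.6 CPM at day 21. At day 21 KO mouse 1 lay within the range of the KO naive mice, KO mouse 3 was the highest KO mouse, and all 3 lay under the lowest WT mouse. In edgeR's test Lss at day 21 was the 1 member whose response was called different between genotypes, whereas DESeq2 called 11 members, Lss among them. The KO response was 1.27-fold and the WT response 2.78-fold, a difference in log2 fold change of -1.13 ± 0.24 (SE, adjusted p = 0.047), where 0.332% of all genes were called in that comparison. Of the 12 fits that each left out 1 mouse of those 4 groups, 11 put its adjusted p between 0.051 and 0.17, and leaving out KO day 21 mouse 3 put it at 0.012.

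Beyond lanosterol, 9 members demethylate, isomerise and reduce the skeleton. In KO mice 6, 8 and 6 of them rose at days 7, 14 and 21, and in WT mice 9, 8 and 8. Cyp51 (chromosome 5, 4081145 to 4104746), the lanosterol demethylase, was the most abundant by mean CPM. In KO it was read at 98.2, 94.4 and 106 CPM in naive mice, 137, 149 and 141 CPM at day 7, 220, 345 and 289 CPM at day 14 and 147, 140 and 221 CPM at day 21. In WT it was read at 81.1, 92.5 and 100 CPM in naive mice, 200, 148 and 195 CPM at day 7, 233, 249 and 207 CPM at day 14 and 258, 290 and 304 CPM at day 21. KO day 14 mouse 2 was the highest mouse of all, and KO day 21 mice 1 and 2 lay within the range of the KO day 7 mice. Cyp51 rose 2.86-fold (log2 fold change 1.52 ± 0.17 SE, adjusted p = 1.9e-06) at day 14 in KO mice and 3.11-fold (log2 fold change 1.64 ± 0.17 SE, adjusted p = 4.7e-07) at day 21 in WT mice.

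Tm7sf2 and Lbr encode sterol reductases that act on the same intermediate. Tm7sf2 (chromosome 19, 6062821 to 6068373) had the largest fold change of all 29 members. It was found at 5.06, 7.3 and 5.61 CPM in naive mice, 18.4, 18.4 and 13.9 CPM at day 7, 28.1, 31.5 and 18.6 CPM at day 14 and 10.1, 10.7 and 22.2 CPM at day 21 in the KO series. The WT series held 7.65, 5.67 and 5.86 CPM in naive mice, 23.1, 13.2 and 20.6 CPM at day 7, 28.1, 28.6 and 22.9 CPM at day 14 and 28.5, 29.9 and 36.7 CPM at day 21. All bleomycin mice lay above all naive mice, and KO day 21 mice 1 and 2 were the lowest of the bleomycin mice. Tm7sf2 rose 4.35-fold (log2 fold change 2.12 ± 0.28 SE, adjusted p = 1.4e-05) at day 14 in KO mice and 4.98-fold (log2 fold change 2.32 ± 0.28 SE, adjusted p = 3.1e-06) at day 21 in WT mice. Lbr, the lamin B receptor with a reductase domain, was called higher at day 7, by 1.66-fold in KO mice and 2.1-fold in WT mice. At day 14 it was lower than at day 7 by a log2 fold change of -1.09 ± 0.18 in KO mice and -0.89 ± 0.18 in WT mice. The summed level of 8 cycling markers was also highest at day 7, at 437 to 522 CPM in KO mice and 379 to 522 CPM in WT mice, against 156 to 314 CPM in KO mice and 197 to 300 CPM in WT mice at the other times, and its part in the Lbr change was not tested.

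Sc5d (chromosome 9, 42251595 to 42264256), a desaturase near the end of the pathway, had the smallest p between genotypes in this group. KO samples gave 28.2, 24.2 and 29.2 CPM in naive mice, 47.1, 49.3 and 42.4 CPM at day 7, 64, 88.9 and 68.5 CPM at day 14 and 35.1, 36.8 and 62.5 CPM at day 21. WT samples gave 21.4, 22.7 and 25.8 CPM in naive mice, 62.8, 48.3 and 55.3 CPM at day 7, 69, 68.5 and 66.5 CPM at day 14 and 73.7, 77.9 and 91 CPM at day 21. It was raised at every bleomycin day in both genotypes, and at day 21 the KO mice lay below the WT mice without overlap. Sc5d rose 2.71-fold at day 14 in KO mice and 3.46-fold at day 21 in WT mice. Msmo1, Nsdhl and Hsd17b7, which remove methyl groups as one complex, rose at day 14 in both genotypes, and Hsd17b7 reached 3.81-fold in WT mice at day 21. Ebp, the sterol isomerase, moved least of the called enzymes, by 1.34-fold in KO mice at day 14 and 1.41-fold in WT mice at day 21. Dhcr7, which makes cholesterol in the last step of 1 branch, rose 1.88-fold and 2.04-fold in the same groups.

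Within the control machinery the genes of the factor itself and of its feedback target rose, and of the other 4 only Scap was called against naive mice, lower at day 7. Srebf2 (chromosome 15, 82147181 to 82205379), which SREBP2 itself is known to activate, had the highest mean CPM of these 6. KO lavage macrophages had 173, 159 and 170 CPM in naive mice, 176, 195 and 197 CPM at day 7, 253, 282 and 269 CPM at day 14 and 184, 183 and 241 CPM at day 21. WT lavage macrophages had 123, 148 and 145 CPM in naive mice, 200, 183 and 204 CPM at day 7, 244, 224 and 201 CPM at day 14 and 242, 254 and 265 CPM at day 21. Already in naive mice all 3 KO values lay above all 3 WT values, a difference that was not called (log2 fold change 0.27 ± 0.1 SE, adjusted p = 0.41). Srebf2 rose 1.6-fold (log2 fold change 0.68 ± 0.1 SE, adjusted p = 8.8e-05) at day 14 in KO mice and 1.83-fold (log2 fold change 0.87 ± 0.1 SE, adjusted p = 2.9e-06) at day 21 in WT mice, and it was not called in KO mice at day 7 or day 21.

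Insig1 (chromosome 5, 28071363 to 28078662), an SREBP2 target whose protein retains the complex, had the largest change of the control genes. The KO mice showed 82.6, 77.1 and 87.2 CPM in naive mice, 78.1, 95.6 and 77.3 CPM at day 7, 147, 181 and 169 CPM at day 14 and 112, 104 and 138 CPM at day 21. The WT mice showed 86.7, 58.3 and 70.1 CPM in naive mice, 106, 86.8 and 108 CPM at day 7, 143, 137 and 120 CPM at day 14 and 165, 175 and 203 CPM at day 21. In KO mice day 7 values overlapped the naive values, and the KO change at that day was 1.02-fold, whereas WT mice rose 1.4-fold. The difference of those day 7 responses was not called (log2 -0.46 ± 0.2 SE, adjusted p = 0.73). At its highest Insig1 was 2.01-fold (log2 fold change 1.01 ± 0.14 SE, adjusted p = 3.3e-05) up at day 14 in KO mice and 2.53-fold (log2 fold change 1.34 ± 0.14 SE, adjusted p = 7.6e-07) up at day 21 in WT mice. Its paralog Insig2 was called in 0 of the 6 comparisons, with log2 fold changes between -0.13 and 0.15.

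Scap, which escorts SREBP2, fell to 69.8, 68.4 and 82.2 CPM at day 7 in KO mice, against 97.1, 94.1 and 96 CPM in naive KO mice, a log2 fold change of -0.38 ± 0.09 (SE, adjusted p = 0.0035). WT mice had 72.1, 67.8 and 69.3 CPM at day 7 and 110, 93 and 88.9 CPM when naive, a log2 fold change of -0.48 ± 0.09 (SE, adjusted p = 5e-04). In both genotypes the day 7 mice lay below the naive mice without overlap. By day 21 KO mice were back at 111, 94.1 and 87.3 CPM, and WT mice were at 84.7, 83.7 and 82.9 CPM. The protease genes Mbtps1 and Mbtps2 were called in 0 of the 6 comparisons with naive mice, with log2 fold changes from -0.23 to 0.21.

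Stard4, a transfer protein that carries cholesterol between membranes, rose at every day in both genotypes. KO mice measured 20.1, 17.1 and 21.7 CPM in naive mice, 23.6, 28.4 and 25.9 CPM at day 7, 36.3, 40.9 and 38.2 CPM at day 14 and 24.7, 28.3 and 39 CPM at day 21. WT mice measured 13.3, 14.9 and 15.7 CPM in naive mice, 32, 29.4 and 32.9 CPM at day 7, 37.6, 36.4 and 31 CPM at day 14 and 38.5, 39.9 and 46.5 CPM at day 21. Naive KO mice lay above naive WT mice and day 7 KO mice below day 7 WT mice, both without overlap. Stard4 rose 1.32-fold, 1.96-fold and 1.56-fold in KO mice and 2.14-fold, 2.39-fold and 2.84-fold in WT mice at days 7, 14 and 21. The difference of the day 7 responses was -0.7 ± 0.2 on the log2 scale (SE, adjusted p = 0.36) and was not called.

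Tmem97 (chromosome 11, 78541817 to 78550777), a sterol-binding membrane protein also known as the sigma-2 receptor, had the higher mean CPM of this pair. Its KO level was 29.1, 32.4 and 29.1 CPM in naive mice, 38, 41.3 and 39.3 CPM at day 7, 37.1, 42.8 and 38.7 CPM at day 14 and 30.6, 32.8 and 36.8 CPM at day 21. Its WT level was 26.3, 24.4 and 26.6 CPM in naive mice, 52.5, 32.6 and 36.4 CPM at day 7, 42.6, 37.6 and 32.4 CPM at day 14 and 46.2, 42.6 and 41.8 CPM at day 21. All bleomycin groups but KO day 21 lay above their naive mice without overlap. Tmem97 rose at each day in WT mice, by 1.69-fold at day 21, and in KO mice at day 7, by 1.31-fold (adjusted p = 0.031). The KO change at day 14 was also 1.31-fold and just missed the threshold (adjusted p = 0.053).

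The comparison of KO with WT mice at the same time asks whether loss of Siglec-F changed the pathway. In edgeR's test 0 of 29 members were called in naive mice, at day 7, at day 14, at day 21 or for the mean of the 3 bleomycin days. The share of all genes called in these comparisons was 0.546%, 0.00792%, 0.135%, 0.0950% and 0.507%. At an unadjusted p under 0.05 there were 2, 3, 5, 23 and 12 members, where 8.33%, 4.59%, 10.0%, 9.78% and 13.0% of all genes had such a p. DESeq2 called 0, 0, 0, 14 and 1 members, and 1.29%, 0.119%, 1.13%, 1.04% and 2.07% of all genes. The naive count of 2 of 29 lay under the share of all genes. The median log2 fold change of the members was 0.12 in naive mice, -0.16 at day 7, 0.18 at day 14 and -0.58 at day 21, where that of all genes lay between 0 and 0.01. The median of the members was thus slightly above 0 in the naive state and at day 14, and below 0 at days 7 and 21. Of the 29 log2 fold changes, 24, 4, 24 and 2 were positive at the 4 times, and no single one of these values passed edgeR's test. In several mice most members deviated the same way, so the signs of the members are not separate observations.

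**Figure D3:**
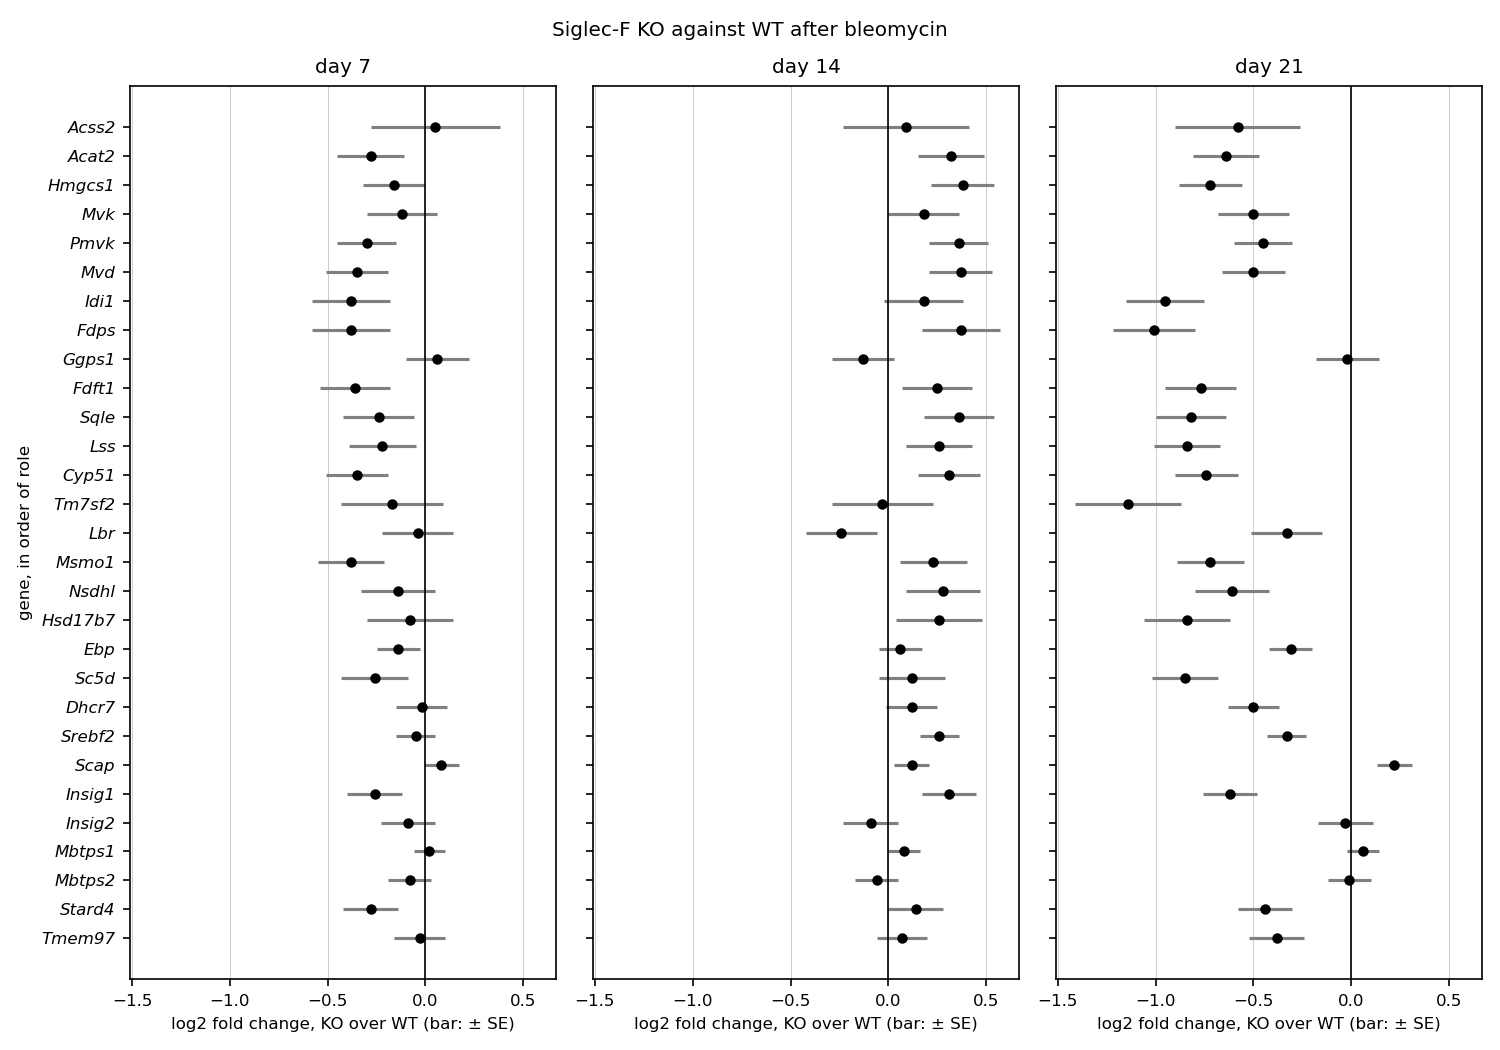
Log2 fold change of KO over WT for each of the 29 members at days 7, 14 and 21 after bleomycin (points, with bars of ± SE from the model, n = 3 mice a group). Day 7 has 25 of 29 points below 0 and 4 above. Day 14 has 5 below and 24 above, and day 21 has 27 below and 2 above.

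The median difference was farthest from 0 at day 21. Every KO mouse lay below every WT mouse for 20 of the 29 members, where 8.24% of all genes did so, and above for 1, Scap, where 7.53% did. At day 14 every KO mouse lay above for Hmgcs1, Mvd, Sqle, Srebf2, Scap and Insig1 (7.05% of all genes), at day 7 every KO mouse lay below for Acat2, Pmvk and Stard4 (3.69%), and in naive mice every KO mouse lay above for 8 members (8.98%). The lowest adjusted p at day 21 was 0.058, for Lss, at a log2 fold change of -0.84 ± 0.17 (SE; 95% interval -1.19 to -0.49). Sc5d was at -0.85 ± 0.17 and Fdps at -1.01 ± 0.21, both with an adjusted p of 0.059. Tm7sf2 had the lowest log2 fold change at -1.14 ± 0.27 (adjusted p = 0.098), and Ggps1, Insig2 and Mbtps2 were within 0.03 of 0. These differences missed the threshold with 3 mice a group. Without the filter on low counts edgeR called 4 members, and without KO day 21 mouse 3 it called 16, whereas without the 3 KO mice nearest the naive mice it called 0. KO day 21 mouse 3 had the highest value of its group for 24 of 29 members, and without it the mean over the 3 days gave 4 called members.

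The responses to bleomycin were then compared between genotypes. At day 7 edgeR called 0 members (7 at an unadjusted p under 0.05, 0 in DESeq2), where 0.00792% of genes were called (6.14% and 0.309%). At day 14 it called 0 members (1 and 0), where 0.332% of genes were called (10.3% and 1.69%). At day 21 it called Lss alone, with 21 members at an unadjusted p under 0.05 (10.8% of genes) and 11 called by DESeq2 (2.07% of genes). The edgeR count at day 21 was 14 without KO day 21 mouse 3, 4 without the low-count filter, and 0 without the 3 KO mice nearest the naive mice, with the mouse number as a replicate block and in a model of the 4 groups alone. The difference of the day 7 to 21 changes gave 0 called members (8 unadjusted, 0 in DESeq2) and 0% of genes (4.87% and 0.0475%), with a lowest adjusted p of 0.98 among the members. The difference of the day 14 to 21 changes, chosen after the day 21 values were seen, also gave 0 called members and 0% of genes in edgeR. There 22 members had an unadjusted p under 0.05 (5.06% of genes), the lowest adjusted p was 0.37, and the median log2 difference was -0.87, against 0.01 for all genes. DESeq2 called 13 members lower (0.166% of genes in either direction), and edgeR called 14 without KO day 21 mouse 3. Hmgcs1 had the smallest p of these, at a log2 difference of -1.09 ± 0.23.

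Mice within a group differed in the level of the whole pathway. The mean log2(CPM + 1) over the 29 members was 5.54, 5.65 and 6.03 in KO day 21 mice and 6.21, 6.22 and 6.41 in WT day 21 mice. At day 14 it was 6.12, 6.4 and 6.18 in KO mice and 6.15, 6.14 and 5.92 in WT mice. KO day 14 mouse 2, KO day 21 mouse 3 and WT day 21 mouse 3 each had the highest value of their group for 24 of 29 members. WT day 14 mouse 3 had the lowest for 24 and WT day 7 mouse 2 the lowest for 23. In each of these mice most members deviated the same way.

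Cell type markers moved with time as well. The counts against naive mice below stand beside 12.0 to 20.2% of all genes called higher and 4.84 to 15.3% called lower in these 6 comparisons. Between KO and WT mice at the same time, edgeR called 0 of the tested markers of any list. Markers with an unadjusted p under 0.05 in that test were counted in naive mice and at days 7, 14 and 21. They were 0, 0, 8 and 3 of 12 recruited macrophage and monocyte markers and 1, 0, 5 and 3 of 12 resident markers. Of 8 epithelial markers they were 0, 4, 1 and 1. Of all genes 8.33%, 4.59%, 10.0% and 9.78% had such a p at the 4 times. The response to bleomycin was called different between genotypes for 1 resident marker at day 14 and 1 at day 21. All 12 recruited macrophage and monocyte markers were tested, and 11, 10 and 10 of them were higher in KO mice at days 7, 14 and 21 and 11 at each day in WT mice. Their summed level was 1190 to 2900 CPM in KO day 14 mice, against 3120 to 4840 CPM in WT day 14 mice. At day 21 it was 1190, 3650 and 2520 CPM in KO mice, and 3160, 2980 and 2750 CPM in WT mice. The KO day 21 mice with the least and the most of these markers, mice 1 and 2, were the 2 with the lower sterol values. Resident marker sums of KO day 21 mice 1, 2 and 3 were 22000, 20000 and 13600 CPM. Means over the members were 5.54, 5.65 and 6.03 in these KO mice. In WT day 21 mice the resident sums were 15600, 16000 and 18700 CPM and the means 6.21, 6.22 and 6.41. Cycling marker sums at day 21 were 156, 217 and 314 CPM in KO mice and 232, 231 and 239 CPM in WT mice. Of the day 14 KO mice, the 2 with the fewest recruited markers, mice 2 and 3, had the higher means over the members. Resident markers fell in 9 of 12 at day 7 in KO mice and 8 of 12 in WT mice. Their sums at that day were 8350 to 12300 CPM in KO mice and 8440 to 10900 CPM in WT mice. At days 14 and 21, 2 and 0 of them fell and 1 and 0 rose in KO mice. In WT mice 6 and 4 fell and 1 and 2 rose at those days. Neutrophil markers summed to 76.3, 146 and 84.5 CPM in KO day 21 mice and 114, 115 and 122 CPM in WT day 21 mice. Lymphocyte markers summed to 5.01, 45.4 and 12.5 CPM in KO day 21 mice and 19.6, 15.1 and 11.4 CPM in WT day 21 mice. Over the 3 bleomycin days, lymphocyte markers summed to 5.01 to 45.4 CPM in KO mice and 11.3 to 25.4 CPM in WT mice, against at most 1.59 CPM in naive mice, and 7 or 8 of the 9 tested were called higher in each comparison with naive mice. Of 6 dendritic cell markers, 4, 2 and 3 rose in KO mice at days 7, 14 and 21 and 6, 5 and 5 in WT mice. Their sum was at most 19 CPM in bleomycin mice and at most 1.62 CPM in naive mice. Of 8 epithelial markers, 1, 4 and 4 rose and 1, 1 and 1 fell in KO mice, and 5, 3 and 5 rose and 2, 1 and 1 fell in WT mice. The KO day 7 counts of 1 and 1 lay near the shares of all genes called there, 19.7% higher and 14.4% lower. The sum of the epithelial markers went down, from 202 to 286 CPM in naive KO mice to 75.3 to 186 CPM at KO day 21. In WT mice it was 242 to 280 CPM when naive and 116 to 129 CPM at day 21. The part of cell composition in the sterol values was not tested.

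**Figure D4:**
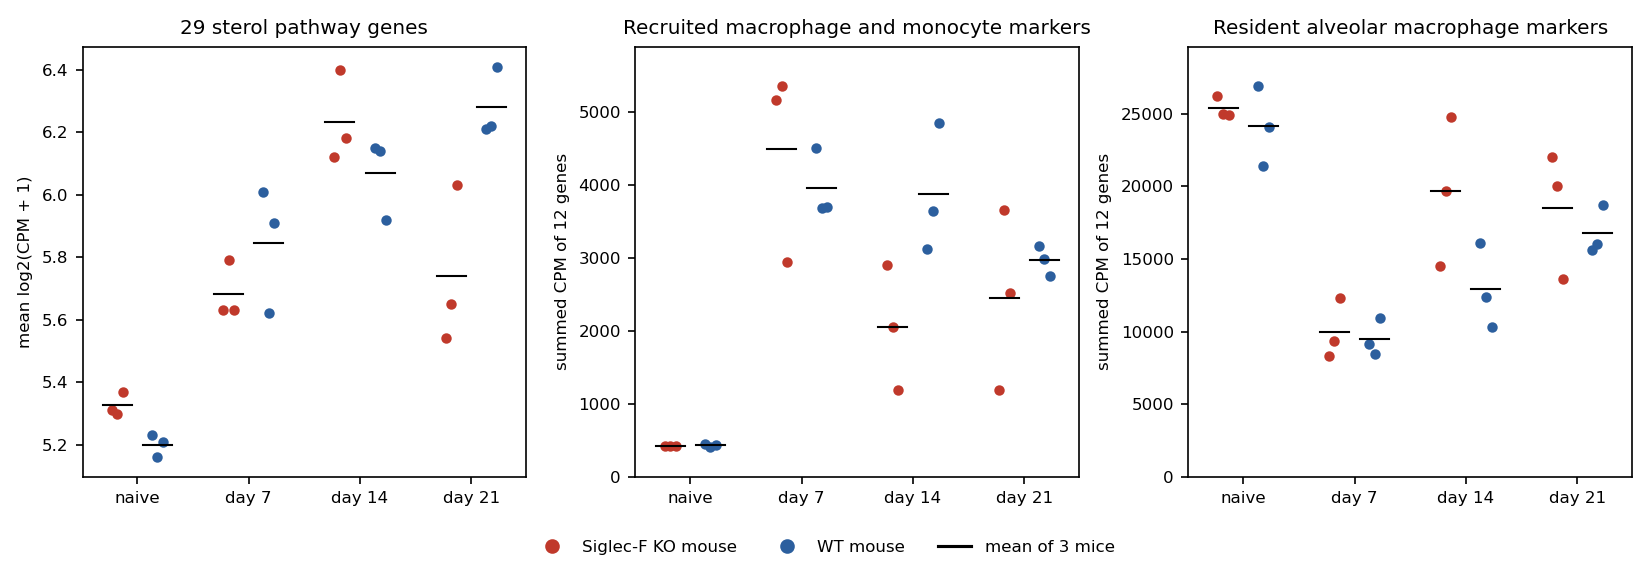
Mean log2(CPM + 1) of the 29 members (left), summed CPM of 12 recruited macrophage and monocyte markers (middle) and summed CPM of 12 resident alveolar macrophage markers (right) in every mouse, with KO mice in red to the left and WT mice in blue to the right at each time and a bar at the mean of 3 mice. At day 21 the members' means are 5.54 to 6.03 in KO mice and 6.21 to 6.41 in WT mice, while the recruited marker sums of the KO mice, 1190 to 3650 CPM, span those of the WT mice. The resident marker sums at day 21 are 13600 to 22000 CPM in KO mice and 15600 to 18700 CPM in WT mice.

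Neighbouring lipid pathways are given by counts beside the shares of all genes called in these 6 comparisons, 12.0 to 20.2% higher and 4.84 to 15.3% lower. Of 14 genes of fatty acid synthesis and SREBP1, 6, 8 and 6 rose and 4, 0 and 1 fell in KO mice at days 7, 14 and 21, and 6, 7 and 8 rose and 3, 2 and 1 fell in WT mice. Fads1, a desaturase of polyunsaturated fatty acids, had 18.1, 17.4 and 17.5 CPM in naive mice, 83.9, 82.1 and 61.9 CPM at day 7, 71.2, 68.8 and 57.1 CPM at day 14 and 39, 60.2 and 70.7 CPM at day 21 in KO animals. In WT animals it had 13.7, 15.5 and 13.7 CPM in naive mice, 70.9, 54.3 and 53.1 CPM at day 7, 73, 71.4 and 76.8 CPM at day 14 and 83.5, 72 and 80.6 CPM at day 21. It was already raised at day 7, and it was up 3.71-fold in KO mice at day 14 and 5.5-fold in WT mice at day 21. Fads2, its partner desaturase, rose 12.2-fold and 11.8-fold in the same groups. At day 21 Fads2 stood at 3.55, 6.63 and 17.3 CPM in KO mice and 27, 17.6 and 30.1 CPM in WT mice, again without overlap. Mid1ip1, which activates acetyl-CoA carboxylase, rose 1.7-fold and 1.96-fold.

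Of 11 genes of oxysterols, LXR and efflux, 3, 3 and 4 rose and 5, 3 and 0 fell in KO mice, and 4, 3 and 5 rose and 6, 4 and 3 fell in WT mice. Mylip, an LXR target that removes lipoprotein receptors, fell 1.88-fold at day 7 in KO mice and 2.78-fold in WT mice. Apoe, a lipid carrier and LXR target that recruited macrophages express strongly, was 44.8-fold higher in KO mice and 71.8-fold higher in WT mice at day 14. Soat1, which esterifies cholesterol for storage, rose 1.34-fold in KO mice at day 14 and 1.63-fold in WT mice at day 21. Of 6 sterol traffic genes, 2, 2 and 1 rose in KO mice and 2, 2 and 3 in WT mice, and none fell. They included Npc2, a lysosomal cholesterol carrier, at 1.47-fold in KO mice and 1.68-fold in WT mice at day 14. Of 11 genes of the prenyl, dolichol and ubiquinone branch, 2, 0 and 0 rose and 1, 0 and 1 fell in KO mice, and 2, 1 and 1 rose and 1, 2 and 2 fell in WT mice. Several of these counts lay near the shares of all genes, such as the 2 of 11 prenyl genes that rose at KO day 7, where 19.7% of all genes did. Of 8 other genes of sterol sensing and degradation, 2, 1 and 2 rose and 1, 0 and 0 fell in KO mice, and 2, 2 and 2 rose and 1, 0 and 0 fell in WT mice. Of these 50 genes, edgeR called 0 between KO and WT mice in the naive state or at days 7, 14 and 21. At an unadjusted p under 0.05 there were 4, 3, 12 and 9 of the 50 at the 4 times. Of all genes 8.33%, 4.59%, 10.0% and 9.78% had such a p. DESeq2 called 0, 0, 2 (Abca1 and Acly) and 0 of the 50, and 1.29%, 0.119%, 1.13% and 1.04% of all genes.

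Outside the list, Aacs, Pirb, Fads2 and Cyb5b were among the 5 genes whose log2 level was most like the members' mean over the 24 mice, with Pearson's r of 0.97, 0.96, 0.95 and 0.94. Naive and bleomycin mice form separate clusters, and within the 18 bleomycin mice r was 0.92, 0.9, 0.87 and 0.9. These correlations are descriptions over mice that share groups and depth. Aacs makes acetoacetyl-CoA from acetoacetate and so feeds the same first steps. It had 46.8, 66.9 and 86.7 CPM in KO day 21 mice and 95.7, 96.8 and 107 CPM in WT day 21 mice. Pirb encodes an inhibitory receptor of myeloid cells and Cyb5b a cytochrome b5 of the mitochondrial outer membrane.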

How the data were processed

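Libraries were made from 200 ng of total RNA per sample with a messenger RNA library kit and read as 150 bp paired ends, per the labels. The authors deposited expected counts, estimated reads per gene with fractions (3.11 to 3.85% of entries were not whole). The labels list 2 runs for a mouse while the table has 1 column, and whether that column sums them is not stated. The submitters' processing notes name mm10, bcl2fastq, DESeq2 1.42.0 and limma 3.58.1. No source used here names the aligner, the counting tool or the use of strand, so overlapping and near-identical genes are uncertain. The table's 24 columns of other samples were not used.

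Counts were rounded to whole numbers. Genes were kept by edgeR 4.0.16 filterByExpr (minimum count 10, minimum total 15; R 4.3.3), scaled with TMM, and fitted by quasi-likelihood with 8 group means (16 residual degrees of freedom, a prior of 4.4, common biological coefficient of variation 0.21). P-values were adjusted by Benjamini-Hochberg over all 12634 genes of a comparison, and a gene was called under 0.05. SE is the absolute log2 fold change divided by the square root of F. CPM per kb uses the union of GENCODE M21 exons, which share the mm10 build. Promoters are RefSeq's. The code was tested on simulated counts of 12634 genes with 200 changed. A first requirement, on the share of 4-fold changes called, was missed for KO against WT at day 21, where 48 of 67 were called (49 of 59 for KO day 14 against naive). After this was seen it was replaced by requirements on sign, bias and false calls, which were met. Counts of mice of one group differed by a chi-square of at least 12.7 per degree of freedom, above counting error.

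The members, the lists and the rule for naming genes were chosen with earlier results of these data known. All members may be named. Values in every mouse are given, within each role, for the member with the highest mean CPM, the one with the largest change after bleomycin and the one with the smallest p between genotypes, and for Srebf2 and Insig1. Up to 3 called genes with the smallest p are named per accompanying list, and the 5 non-members most like the members' mean, of which 1 is not reported here. Alternatives were RLE scaling, DESeq2, no filter, a fit of only the groups compared, a replicate block by mouse number, and leaving out each mouse. The difference of the day 14 to 21 changes, the fit without 3 KO mice and the motif CACNCCAC were added after seeing the data.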

Additional observations from a re-analysis of the deposited data

Results flagged for a closer look

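Lss, which encodes lanosterol synthase, was the 1 member whose response to bleomycin edgeR called different between genotypes, at day 21. For the same difference edgeR called 4 members with no filter and 14 without KO day 21 mouse 3, and DESeq2 called 11. Its level at that day was 31.9, 35.9 and 49.4 CPM in KO mice and 66.5, 62.6 and 80.6 CPM in WT mice. The KO response minus the WT response was -1.13 on the log2 scale, with an adjusted p of 0.047 in edgeR's test. The adjusted p was 0.041 with RLE scaling, 0.035 with no filter and 0.0019 in DESeq2, and the call was lost with the replicate block (0.068), with only the compared groups fitted (0.071) and without the 3 KO mice nearest the naive mice (0.07). Of 12 edgeR fits that each left out 1 mouse, 11 lost the call, with adjusted p between 0.051 and 0.17; without KO day 21 mouse 3 it was 0.012.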

How the results depend on the processing

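Counts of called members in comparisons with naive mice stayed within 1.5 times under RLE scaling, no filter, DESeq2 and the replicate block. In the compared groups alone they were 22 at KO day 7 (otherwise 14) and 3 at KO day 21 (otherwise 16), and for KO day 21 against day 7 the count was 1 (otherwise 4). Under DESeq2 they became 14 for KO against WT at day 21, 1 for the mean of the bleomycin days, 11 for the difference of the responses at day 21 (otherwise 1), 7 for KO day 21 against day 14 and 13 for the difference of the day 14 to 21 changes; where no count is named here it had been 0. With no filter the count was 4 for KO against WT at day 21 and 4 for the difference of the responses at day 21. That difference gave 0 with the replicate block, 0 in the compared groups alone and 0 without the 3 KO mice nearest the naive mice, a setting under which KO day 14 against day 7 gave 5 (otherwise 20). The cause of these shifts was not tested.

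Leaving out 1 mouse at a time gave 8 to 15 called members at KO day 7, 20 to 22 at KO day 14, 5 to 19 at KO day 21, 21 to 25 at WT day 7, 22 to 23 at WT day 14 and 23 at WT day 21. It gave 0 to 16 for KO against WT at day 21, 0 to 4 for the mean of the bleomycin days, and 0 to 0 in naive mice and at days 7 and 14. It gave 0 to 14 for the difference of the responses at day 21 and 0 at days 7 and 14. Between bleomycin days it gave 14 to 20 for KO day 14 against day 7, 2 to 4 for KO day 21 against day 7, 0 to 14 for KO day 21 against day 14, 1 to 2 for WT day 14 against day 7, 5 to 13 for WT day 21 against day 7 and 0 for WT day 21 against day 14. The difference of the day 7 to 21 changes gave 0 and that of the day 14 to 21 changes 0 to 14. KO day 21 mouse 3 was the mouse left out for the 16 of KO against WT, the 4 of the mean of the bleomycin days, each 14 at an upper end and the 5 at KO day 21. The 8 at KO day 7 came without KO naive mouse 1 (9 without KO day 7 mouse 2), and 9 at KO day 21 without KO naive mouse 2. The 5 for WT day 21 against day 7 came without WT day 7 mouse 2 or WT day 21 mouse 3 (8 without WT day 21 mouse 2). The 2 for KO day 21 against day 7 came without KO day 7 mouse 3 or KO day 21 mouse 3. Over the 162 called values of single members, 1666 of 1851 refits kept the call, 185 lost it and 0 changed sign.

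Mice with the same number deviated together, every pair over 0.1, in 1 of 16 comparisons of 2 groups, WT day 7 against naive. There the replicate block left the count at 24 as it was. For KO minus WT at 1 time, the 95% interval of a member reached 0.17 to 0.68 on the log2 scale to either side. The median over the members was 0.34. Differences smaller than a member's interval could not be told from 0 with 3 mice a group. These intervals are not adjusted for the number of genes tested, so a difference beyond them need not be called. At day 21, 23 members had an unadjusted p under 0.05 in edgeR's test and 0 were called.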
